A study of Bos taurus with 6 samples.

Results

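The miRNAs of the imprinted DLK1-DIO3 locus were examined in small RNA libraries of cultured bovine granulosa cells, the somatic cells that surround the oocyte in the follicle. Members were chosen by name, as every listed bovine miRNA whose number is 1 of 45 numbers known from this locus, with any letter or arm suffix. This gave 58 of the 1028 miRNAs listed, while 4 of the numbers (miR-300, miR-337, miR-770 and miR-889) had no entry. The cells came from small antral follicles of 3 to 6 mm, obtained from slaughterhouse ovaries, and grew for 24 h in medium with 10% exosome-depleted serum. The control group (3 libraries) then stayed at 37 °C and the heat-stressed (HS) group (3 libraries) was held at 42 °C, each for a further 24 h. The labels give no genetic modification or other agent, and neither the number nor the age of the animals behind each replicate. The p-values below therefore measure the spread between these libraries only.

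The locus lies between DLK1, which encodes a Notch-like membrane protein, and DIO3, which encodes the deiodinase that inactivates thyroid hormone. The paternal copy expresses these protein-coding genes together with RTL1, a retrotransposon-derived gene needed in the placenta. The maternal copy expresses the long noncoding RNAs MEG3, MEG8 and MEG9, arrays of small nucleolar RNAs and the miRNAs, so that the miRNAs are read from a single parental allele in mammals. They are known for high levels in placenta, embryo, brain and muscle cells, and in livestock the locus is known for the callipyge muscle phenotype of sheep. All 58 members matched a gene in RefSeq (assembly ARS-UCD2.0). Of these, 57 had a gene between DLK1 and DIO3, and bta-miR-544b did not. A first group of 8 members lies beside MEG3 or in and around RTL1, and the other 50 were counted with the long cluster that starts at miR-379 and ends at miR-656.

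The deposited values were normalised CPM (reads of a miRNA scaled to a common library size), from which whole reads per miRNA were recovered. The 6 libraries held 2076239 to 4590971 reads, and control replicate 1 was the shallowest. A count of 0 in a library allows a level of up to 3 reads, equal to 0.639 normalised CPM in the deepest library and 1.46 in the shallowest. This floor and the intervals on reads cover counting error only. The 6 granulosa-associated miRNAs were all present at very unequal levels, and bta-miR-21-5p, at 144200 to 203800 normalised CPM, made up nearly all of their sum. Gonad-enriched bta-miR-202 ran from 1309 to 2749 and bta-miR-132 from 899.8 to 1083. The other members of that list were lower, bta-miR-503-5p at 91.9 to 176.9, bta-miR-424-5p at 79.6 to 127.3 and bta-miR-212 at 29.8 to 38.5. miRNA levels alone do not define a cell type.

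Both groups held very few reads of the listed miRNAs of the locus, and its other transcripts were not measured. The 58 members together had 349 of 21553066 reads, or 1 read in 61757. In control cells their summed level was 14.2, 14.3 and 22.3 normalised CPM in replicates 1, 2 and 3. In HS cells it was 14.3, 13.9 and 17.03 in the same order. Control replicate 3 and HS replicate 3 were the highest of their groups, and the HS values lay within the range of the control values apart from HS replicate 2, which was slightly below it. As a share of the reads of a library the sum was 0.00138% to 0.00224%. In bulk RNA such as this, fewer cells that express a miRNA and less of it per cell cannot be told apart.

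**Figure D1:**
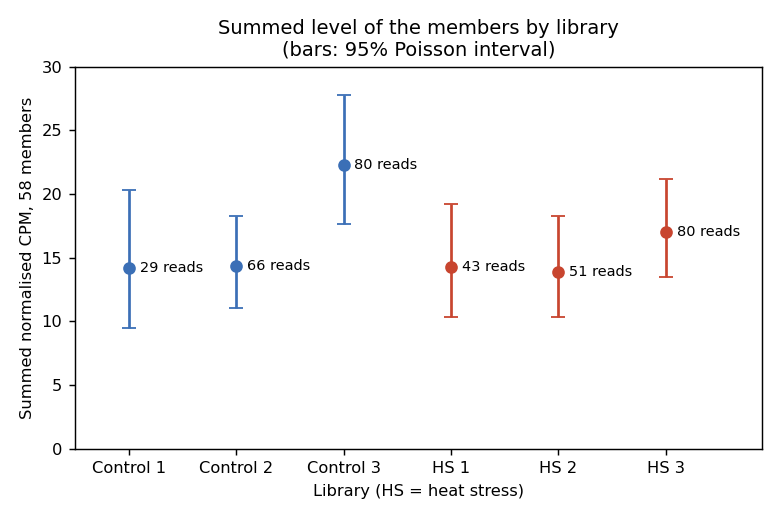
Summed level of the 58 members in each library, in normalised CPM, for the control (blue) and heat-stressed (red) libraries. Points are single libraries and bars are 95% exact Poisson intervals on the summed reads, which are printed beside each point. The intervals of the libraries overlap, with the highest level in control replicate 3 (80 reads, 22.3 normalised CPM).

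By the study's rule for detection, at least 10 normalised CPM in at least 2 of the 3 libraries of a group, no member was detected in control cells and none in HS cells. The same rule was met in at least 1 group by 278 of all 1028 miRNAs (27.0%). The highest value of any member in any library was 3.91 normalised CPM, for bta-miR-432 in control replicate 1. By mean level bta-miR-432 was 357th of the 1028 miRNAs, and the members with a read had a median rank of 612. In the plot of level against rank the members lie along the low tail, all of them under the detection level.

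**Figure D2:**
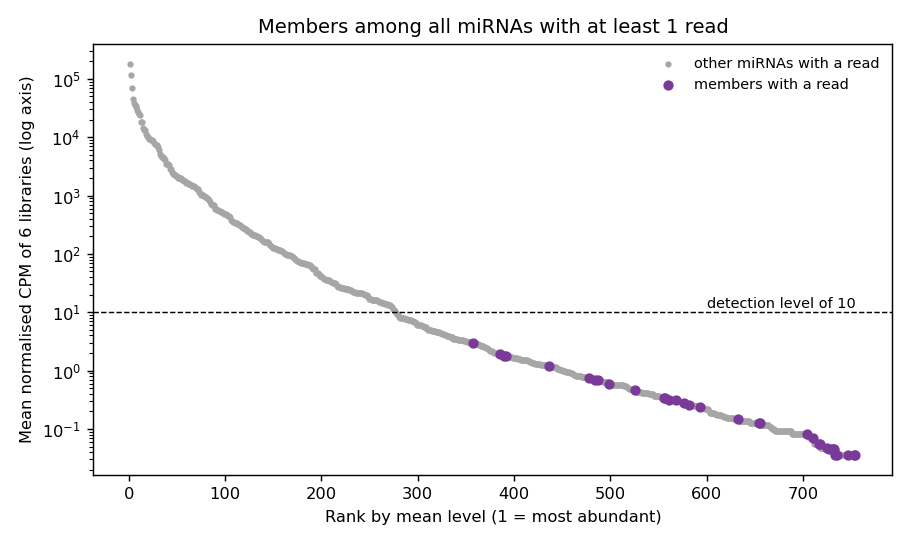
Mean normalised CPM over the 6 libraries (log axis) against rank, for the 755 miRNAs with at least 1 read. Grey points are other miRNAs, purple points are the 34 members with a read, and the dashed line is the detection level of 10. The member with the highest level, bta-miR-432, stands at rank 357 with a mean of 2.98.

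No read was seen for 24 of the 58 members (41.4%) in any library, against 273 of all 1028 miRNAs (26.6%). Pooled over the 6 libraries, a count of 0 allows a level of up to 0.139 CPM for each of these members. They include bta-miR-136, which in mammals lies antisense to RTL1 and is complementary to its transcript, and bta-miR-485, bta-miR-329a and bta-miR-329b, known from neurons. A further 17 members had 1 to 3 reads in all. Among them were bta-miR-134, which limits dendritic spine growth in neurons, with 1 read, and bta-miR-410 with 1 read. The miR-376 group, whose precursors are known targets of A-to-I editing, had 1 read for bta-miR-376a, 2 for bta-miR-376b, 2 for bta-miR-376c, 1 for bta-miR-376d and 5 for bta-miR-376e. Across the 348 values of the members, 247 (71.0%) were 0, and 31 exceeded the floor of 3 reads. Over all miRNAs 40.3% of the values were 0.

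The few reads were unevenly shared. bta-miR-432, bta-miR-379, bta-miR-411a, bta-miR-382 and bta-miR-494 held 214 of the 349 reads (61.3%), and these 5 were the members with a read in every library. Another 5 members had 10 or more reads, 7 had 4 to 9, and the remaining members had 3 or fewer. Along the locus, members with 10 or more reads lay on both sides. The first 3 genes of the long cluster, those of bta-miR-379, bta-miR-411a and bta-miR-299, had 44, 42 and 14 reads. Further along, the neighbouring genes of bta-miR-381 and bta-miR-487b had 15 and 13 reads. The plot of reads along the locus shows these as separate peaks. The authors' description does not state how reads that fit several near-identical miRNAs were assigned, so the split within the miR-376, miR-154, miR-411 and miR-487 groups is uncertain.

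**Figure D3:**
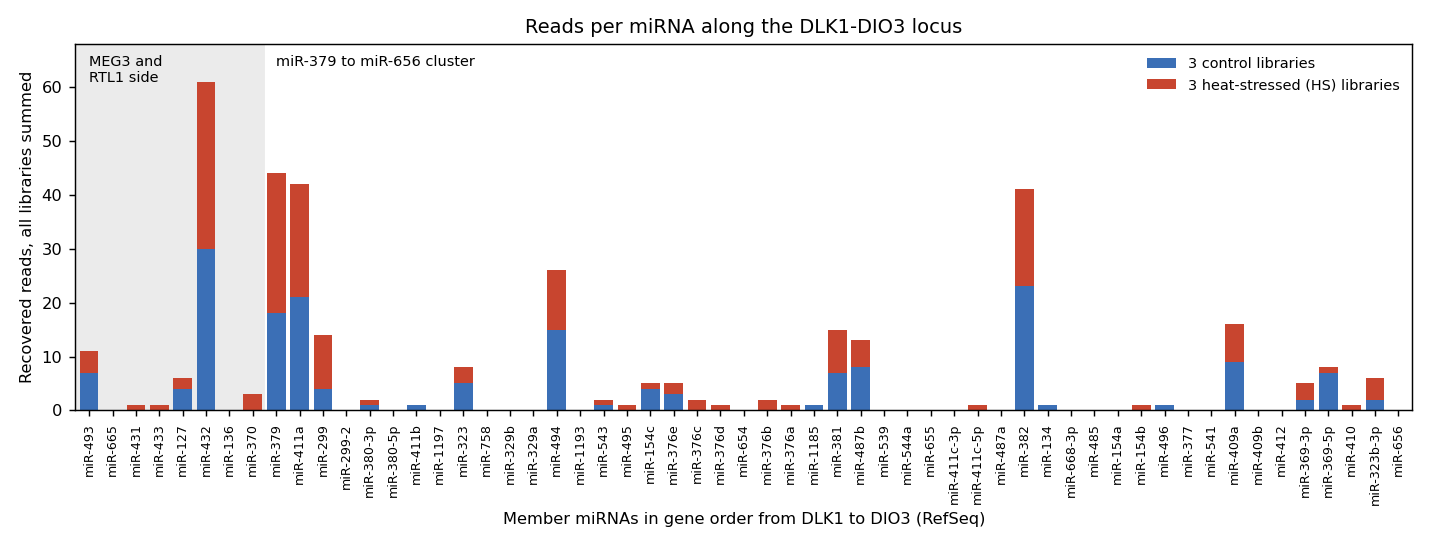
Reads summed over 3 control (blue) and 3 heat-stressed (red) libraries for the 57 members with a gene between DLK1 and DIO3, in RefSeq gene order. The shaded part marks the 8 members on the MEG3 and RTL1 side. The tallest bars are bta-miR-432 (61 reads), bta-miR-379 (44), bta-miR-411a (42) and bta-miR-382 (41).

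Both parts of the locus were low. The 8 members on the MEG3 and RTL1 side had 83 reads, and their summed level was 4.08 ± 1.14 normalised CPM at 37 °C and 3.81 ± 0.833 under HS (SD over 3 libraries each). Of these reads 61 belonged to bta-miR-432, and the other 7 members of this side had 22. bta-miR-127, which in mouse placenta is transcribed antisense to RTL1 and represses it, was read 0, 2 and 2 times in the controls and 1, 0 and 1 times under HS. bta-miR-431 and bta-miR-433, also antisense to RTL1, had 1 read each. bta-miR-370 was not read in control cells and was read 2, 0 and 1 times under HS, each at or under the floor. The 50 members counted with the long cluster had 266 reads, with a summed level of 12.85 ± 3.63 at 37 °C and 11.2 ± 2.44 under HS (SD over 3 libraries each). No read was seen for 2 of the 8 and for 22 of the 50.

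miRNAs that RefSeq places in the same interval but whose numbers are not among the members were also near 0. These were 6 listed miRNAs from 5 genes, found by gene position after the values of the members were known. bta-miR-453, bta-miR-3578, bta-miR-3956, bta-miR-3957 and bta-miR-1247-5p had no read, and bta-miR-1247-3p had 1. Clusters elsewhere in the genome, chosen after the values were seen, show the scale of the difference. The 7 listed miRNAs of the miR-17-92 cluster, a polycistron known for promoting proliferation, summed to 23790 to 32690 normalised CPM per library. Part of those reads can come from the related miR-106a-363 copies of miR-19b and miR-92a. The 7 miRNAs taken from the miR-424 to miR-542 cluster summed to 463.1 to 624.8, and bta-miR-424-5p and bta-miR-503-5p of these are also in the granulosa-associated list below. The lowest library of the latter was 20.8 times the highest library of the DLK1-DIO3 members. This is a description, without a test.

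The question asked of the design was whether HS changed these miRNAs. After a filter that requires enough reads for a test, 365 miRNAs were tested with limma and a single member, bta-miR-432, was among them. Its level was 3.91, 1.74 and 3.90 normalised CPM in the 3 controls, from 8, 8 and 14 reads. In HS cells it was 2.99, 2.99 and 2.34, from 9, 11 and 11 reads. The HS values lay inside the range of the control values. The log2 fold change of HS over control was -0.10 ± 0.291 (SE), with a 95% interval from the spread between libraries of -0.79 to 0.59, on a log2(normalised CPM + 1) scale (limma, Benjamini-Hochberg adjusted p = 0.959). The added 1 shrinks the fold change of low miRNAs. Single libraries decided its direction: the log2 fold change was 0.038 without control replicate 1, 0.037 without control replicate 3 and -0.38 without control replicate 2. A miRNA was called when its adjusted p did not exceed 0.2 and its level changed by 1 or more on the log2 scale. Of the 365 miRNAs 11 met this (3.01%), none of them a member. The edgeR quasi-likelihood test did not call bta-miR-432 either, and the DESeq2 Wald test gave it no adjusted p, so that it could not be called there. At an unadjusted p under 0.05 there were 53 (14.5%), and again no member. Over those 365 miRNAs the median change was -0.0015.

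With no filter other than a read in any library, 755 miRNAs entered the fit, with 34 members among them. No member was called, where 11 of the 755 (1.46%) were, and none had an unadjusted p under 0.05, where 75 (9.93%) did. These shares are not a like-for-like background. On the log2(normalised CPM + 1) scale, a member with a mean under 1 normalised CPM in both groups cannot change by 1. Most of the 34 had such means, so limma could not call them even if 1 group held no read. The 12 members with 1 read had unadjusted limma p-values of 0.408 to 0.528, set by that read. The edgeR quasi-likelihood test and the DESeq2 Wald test on the same 755 miRNAs also called no member. Neither gave a member an unadjusted p under 0.05, but DESeq2 gave an adjusted p to only 5 of the 34. Of the 34, 15 had a log2 fold change above 0 and 19 below. Their median was -0.049 in limma, beside -0.016 for the 755. It was -0.10 beside -0.034 in edgeR and -0.17 beside -0.032 in DESeq2. The values ran from -0.49 for bta-miR-369-5p to 0.46 for bta-miR-299, and the smallest adjusted p was 0.654 (limma). The groups overlapped for all 34 members. The groups were apart for 105 of the 755 (13.9%), of which 50 were higher in HS cells (6.62%) and 55 lower (7.28%). The 17 members with 1 to 3 reads held a 0 in both groups, so their groups could only overlap. With so few reads these fits could miss large changes as well as small ones. bta-miR-369-5p had 7 reads in control and 1 under HS, and limma gave it a log2 fold change of -0.49 with an adjusted p of 0.654.

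The 12 members with the highest mean level were compared library by library. bta-miR-379, the first miRNA of the long cluster, was at 0.488, 1.52 and 2.79 normalised CPM in the controls, in replicate order, and at 2.32, 0.816 and 3.41 under HS. bta-miR-411a, from the adjacent gene, was at 1.46, 1.52 and 3.06 in the controls against 0.332, 0.544 and 3.83 under HS. For both the highest library of each group was replicate 3, and the groups overlapped. bta-miR-382 was at 0.976, 2.17 and 3.06 in the controls against 0.995, 2.18 and 1.49 under HS. For bta-miR-494 the controls held 0.976, 1.74 and 1.39 and the HS libraries 1.33, 0.816 and 0.851. Both had a lower mean in HS cells, 1.55 against 2.07 for bta-miR-382 and 0.998 against 1.37 for bta-miR-494, with overlapping groups. Their unfiltered limma adjusted p was 0.833 in each case.

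The remaining members of the 12 rested on 8 to 16 reads in all. bta-miR-487b was read 5, 0 and 3 times in the controls and 1, 1 and 3 times under HS, so that control replicate 1 held most of its control level at 2.44 normalised CPM. bta-miR-409a was read 0, 3 and 6 times in the controls and 2, 2 and 3 times under HS. bta-miR-381 was read 1, 4 and 2 times in the controls and 4, 0 and 4 times under HS. In each of these 3 the HS and control libraries were interleaved. bta-miR-299 was read 0, 1 and 3 times in the controls and 1, 5 and 4 times under HS, with mean levels of 0.351 and 0.848 normalised CPM. bta-miR-493 was read 0, 4 and 3 times in the controls and 1, 2 and 1 times under HS. bta-miR-369-5p was read 0, 3 and 4 times in the controls and 0, 1 and 0 times under HS. bta-miR-323 was read 0, 1 and 4 times in the controls and 0, 1 and 2 times under HS. For the last 3 the control mean was higher, and a control library at 0 lay at or below the HS libraries in each of them.

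**Figure D4:**
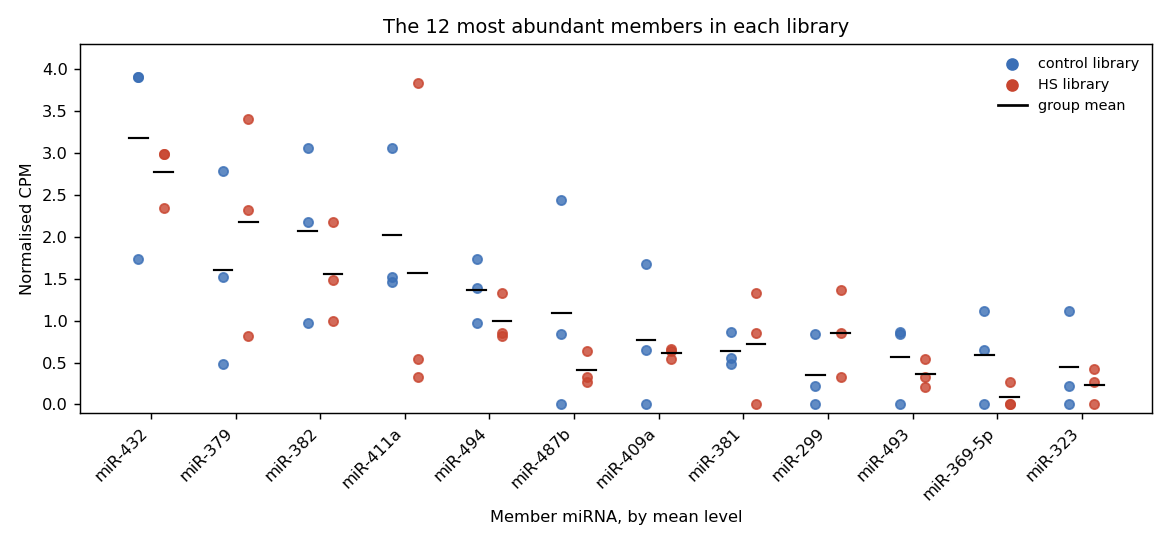
Normalised CPM of the 12 members with the highest mean level, in each control (blue) and heat-stressed (red) library. Points are libraries and black lines are group means. The groups overlap for all 12, and no point reaches 4 normalised CPM.

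Summed over the members, the groups held 175 reads in control and 174 in HS cells, from 10192311 and 11360755 reads in all. The mean summed level was 16.9 ± 4.64 normalised CPM at 37 °C and 15.05 ± 1.72 under HS (SD over 3 libraries each), a log2 ratio of -0.17. From the pooled reads, the ratio of HS to control was 0.894 with an exact 95% interval of 0.721 to 1.109, which covers counting error only. Without bta-miR-432 the ratio was 0.887 (0.699 to 1.125). Without control replicate 3, which had the highest sum, the log2 ratio turned to 0.079. Among members with reads, 19 had them in both groups, 4 only in control and 11 only in HS libraries, and those seen in 1 group had at most 3 reads. Over all 755 miRNAs with a read, 49 were seen only in control and 44 only in HS libraries. With at most 3 reads each, no direction is read from the 4 and 11.

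Marker miRNAs of other cell types were measured beside these values. The 6 miRNAs associated with mesenchymal, stromal or theca cells were all present and summed to 1327 to 2089 normalised CPM in control and 2012 to 2201 in HS cells. Their lowest sum was 59.5 times the highest sum of the DLK1-DIO3 members. bta-miR-199a-3p made up most of this list (934.5 to 1680), and bta-miR-145, abundant in smooth muscle, ran from 4.74 to 18.1. The 7 blood cell miRNAs summed to 730.2 to 895.4 in control and 676.6 to 799.8 in HS cells. White cell miRNAs carried most of this sum, with bta-miR-142-5p at 247.9 to 428.5, bta-miR-223 at 195.8 to 311.0, bta-miR-150 at 44.97 to 260.7 and bta-miR-142-3p at 7.81 to 24.1. The red cell miRNAs bta-miR-451 and bta-miR-144 were at 2.655 or less and 0.272 or less, while bta-miR-486, also known from red cells, ran from 11.98 to 60.06. The pair of endothelial miRNAs gave 228.1 to 351.6 and 130.8 to 265.0 in the same order. Muscle miRNAs (3 of 3 present) gave 55.2 to 245.1 in control and 61.05 to 199.3 in HS cells. Epithelial miRNAs (6 of 6 present) gave 62.0 to 96.9 and 51.9 to 88.9. Each list overlapped between the groups. Control replicate 3, with the highest sum of the DLK1-DIO3 members, held the highest sum of none of these lists except the endothelial one and the granulosa-associated one (207800). The part of other cell types in the few reads of the locus was not tested.

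**Figure D5:**
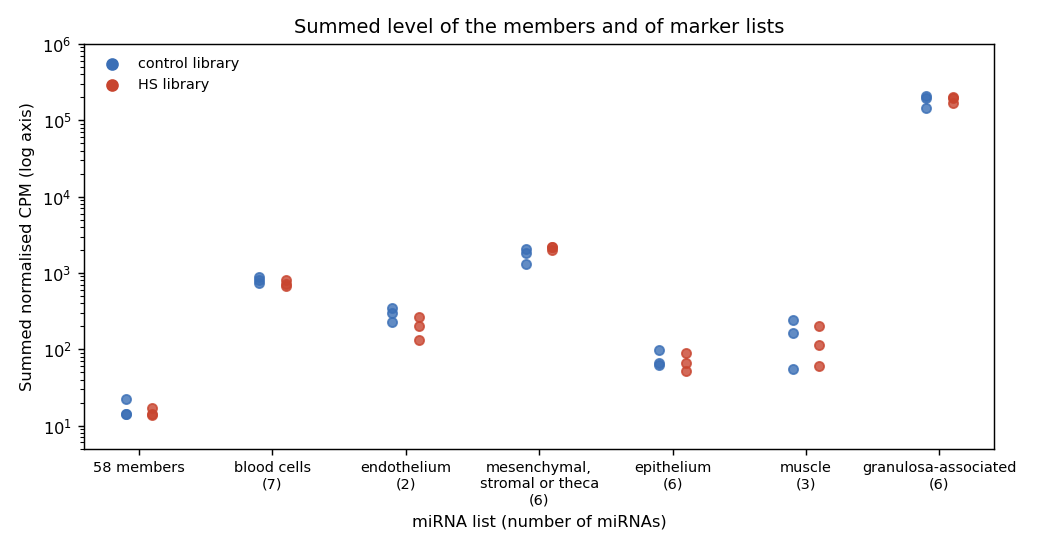
Summed normalised CPM (log axis) of the 58 members and of 6 marker lists, in each control (blue) and heat-stressed (red) library. Numbers under the list names count the miRNAs in each list. The members sum to 13.9 to 22.3, below every marker list in every library, the closest being the epithelial one with 51.9 at its lowest.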

How the data were processed

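Granulosa cell RNA (100 ng) was made into small RNA libraries with molecular identifiers and 16 PCR cycles. The authors trimmed adapters (Cutadapt 1.11), collapsed reads by identifier, mapped them (Bowtie2 2.2.2, genome build UMD3.1), counted known miRBase miRNAs and applied TMM (trimmed mean of M-values) scaling in edgeR. The deposited signal is thus TMM-normalised CPM. In each library 100% of the values were whole multiples of 1 step (tolerance 0.01 of a read), which gave the reads.

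The members and marker lists were chosen with earlier results of these data known. miRNAs passing edgeR 4.0.16 filterByExpr on the recovered reads were tested with limma 3.58.1 (R 4.3.3, mean-variance trend) on log2(value + 1), adjusted over all tested. The limma script was tested on simulated data, without the fold minimum of a call. Changes were placed only among well-read miRNAs, of the members at most bta-miR-432, so that test does not cover the other members. The main fit held no replicate block, as the study's methods name none and the labels do not say whether numbers mark shared cells. Deviations of same-numbered libraries correlated at 0.419, -0.122 and 0.612, without a comparison to differently numbered ones, so pairing stays undecided. The block was fitted as an alternative. Alternatives used DESeq2 1.42.0. Intervals used scipy 1.17.1. RefSeq gave gene names and order only, as its assembly differs. Members named with values in every library were the 12 highest by mean, any with an adjusted p of at most 0.2 or an unadjusted p under 0.05, and the extremes among those tested. Other members, bta-miR-127 and bta-miR-370 with their reads by library included, were named after their values were seen. An arm ratio needed a mean of 20 reads on both arms, and of 3 hairpins with both arms listed none had it.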

Additional observations from a re-analysis of the deposited data

How the results depend on the processing

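Across 19 alternatives, which changed the scaling, test, filter, pseudocount or pairing or left out a library, 8 to 16 of all miRNAs were called and no member. Of these alternatives 11 tested bta-miR-432 alone, 4 tested 3 members and 4 tested 34, so for most members they say little. With the replicate block the number of members called was 0, of 10 miRNAs called in all, and bta-miR-432 had the log2 fold change of -0.10 it has without it. The DESeq2 Wald test gave bta-miR-432 no adjusted p, and without the filter it gave none to 29 of 34 members. A minimum of 10 normalised CPM on the mean left no member to test, and no arm ratio could be computed. The 3 fits without the filter that used edgeR, DESeq2 or the block were chosen after the data were seen. At a minimum of 1 normalised CPM, 5 members were detected in control cells and 3 in heat-stressed cells, 5 in either, and at 100 there were 0. These minima were not counted over all miRNAs, so no direction is read from the 5 and 3. The log2 fold change of bta-miR-432 changed sign without control replicate 1 (0.038) and without control replicate 3 (0.037), and ranged from -0.38 to 0.038 when single libraries were dropped, and the cause was not tested. For the summed level the log2 ratio ran from -0.28 to 0.079 when single libraries were left out, positive only without control replicate 3, and upper quartile factors gave -0.34 while moving the median of all tested miRNAs to -0.18. With 349 reads over 58 members and 3 libraries a group, a small change in a single member would not be detectable. For most members both group means were under 1 normalised CPM, and limma could not call even a complete absence from 1 group.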
